A study of Mus musculus with 6 samples.

Results

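AP-1 and the immediate early transcription factors were followed in the mouse renal cortex after ischaemia and reperfusion. Members were taken by gene symbol and were Fos, Fosb, Fosl1, Fosl2, Jun, Junb, Jund, Atf3, Maff and Egr1, 10 of the 21957 genes with values in all libraries. All 10 passed edgeR's filter on low counts, as did 13609 genes in all. Fosl1 and Fosb reached the filter's level in 0 of 3 sham libraries and Fos in 2 of 3, so these genes passed on their IR24h libraries.

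RNA-seq was done on total RNA from the cortex of C57BL/6 mice, an inbred strain that the titles call WT. In the IR24h group (n = 3) both renal pedicles, which carry the vessels of the kidney, had been clipped for 30 min and the tissue was taken 24 h after the clips came off. The sham group (n = 3) was labelled as sham with no further detail, and the sources used here give no age. Nothing says that the libraries of a group came from separate mice, so p-values measure only the spread between these libraries.

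AP-1 is a dimer of basic leucine zipper (bZIP) proteins. The Jun proteins pair with each other or with a Fos or ATF protein, and the pair binds short, nearly palindromic elements such as the TPA response element (TGANTCA) and the cAMP response element (TGACGTCA and its relatives). Most genes of this group are immediate early genes: kinases of the ERK, JNK and p38 pathways act on factors already bound at their promoters, and their transcripts appear within minutes of a stimulus and are usually short lived. In the kidney, Fos, Jun, Atf3 and Egr1 are textbook early responders to ischaemia.

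Libraries held 12877237 to 15998975 counts in IR24h and 14339985 to 17061844 in sham. Genes of the mitochondrial genome took 68.9, 26.2 and 49.2% of the counts in IR24h libraries 1, 2 and 3, and 13.1 to 14.2% in the sham libraries. IR24h library 2 stood apart: its log2 values across genes correlated with those of IR24h 1 and 3 at 0.823 and 0.836 and with sham at 0.848 to 0.859, while IR24h 1 and 3 correlated with each other at 0.916. Markers of the proximal tubule, which makes up most of the cortex, summed to 10662 to 18139 CPM (read counts normalised to library size) in IR24h and 31299 to 36109 CPM in sham. One of them, Kap, held 10826, 5080 and 13814 CPM of these sums in IR24h and 8809, 9883 and 13142 in sham. The gene length behind the authors' values differed between the groups for 13.1% of the 14239 genes compared, so the processing of the groups differed in part. The sources used here do not say whether counting used the strand, so reads of a gene and of its antisense partner cannot be told apart.

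Promoter bases are shown for the members whose 250 bases before the start matched a sequence that AP-1 or its cyclic AMP responsive relatives can bind, since textbooks place elements of this kind before Fos and Jun. RefSeq promoters (GRCm38.p6) were at hand for 8 of the 10 members, in 10 windows, and not for Fosl1 and Egr1. Each line gives the 150 bases that end just before the annotated start, 5′ to 3′ on the gene's strand, with the matched bases in capitals. The stretches are chr12:85473740-85473889 (+) for Fos, chr4:95052223-95052372 (-) for Jun, chr1:191183334-191183483 (-) for Atf3 and chr15:79347370-79347519 (+) for the second of 3 annotated Maff starts.
Fos: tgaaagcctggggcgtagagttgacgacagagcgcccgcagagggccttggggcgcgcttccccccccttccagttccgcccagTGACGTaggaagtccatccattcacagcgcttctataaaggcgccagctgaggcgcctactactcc
Jun: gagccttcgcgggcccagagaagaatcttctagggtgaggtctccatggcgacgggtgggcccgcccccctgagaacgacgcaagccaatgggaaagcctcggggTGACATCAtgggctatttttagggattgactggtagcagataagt
Atf3: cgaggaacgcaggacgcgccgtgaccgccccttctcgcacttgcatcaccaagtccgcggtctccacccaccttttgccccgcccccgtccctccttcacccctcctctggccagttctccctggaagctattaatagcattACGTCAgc
Maff: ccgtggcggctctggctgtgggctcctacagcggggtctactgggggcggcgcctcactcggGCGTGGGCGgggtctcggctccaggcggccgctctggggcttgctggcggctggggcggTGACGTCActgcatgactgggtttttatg

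The capitals mark TGACGT in Fos at -66 to -61 from the start and TGACATCA in Jun at -45 to -38. In Atf3 they mark ACGTCA at -8 to -3, which is the same element as in Fos on the other strand. In Maff they mark TGACGTCA at -29 to -22 and GCGTGGGCG, which has the form of an Egr site (GCGNGGGCG), at -88 to -80. The last 7 bases of the Atf3 stretch lie within a GENCODE exon. Over 32851 RefSeq windows of 250 bases, both strands searched, TGANTCA was found in 6.75%, TGACNTCA in 7.49%, the shorter TGACGT in 6.47%, GCGNGGGCG in 4.70% and the CArG box of serum response factor in 1.47%. TGACGTCA counts both as TGACNTCA and as TGACGT. GCGGGGGCG was also present before Fosb and Fosl2 and TGACATCA before the third Maff start. The RefSeq start of Fosl2 lies 671 bases inside the GENCODE gene, and all 150 bases before it fall in a GENCODE exon. Those shown for Atf3 and Maff lie 34706 and 899 bases inside the gene, while that of Jund lies 1210 bases upstream of its GENCODE start. None of these motifs was found in the windows of Junb, Jund or the first Maff start, and TGANTCA and the CArG box were found in none of the 10 windows. Bases further upstream were not searched, nor were any bases of Fosl1 and Egr1. A match of letters is a description and shows no binding.

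After ischaemia and reperfusion 8 of the 10 members were higher in IR24h, 0 were lower, and Jun and Jund did not pass the test (edgeR's quasi-likelihood test, Benjamini-Hochberg adjusted p under 0.05 over all genes). Fosl1 and Fosb had entered the test on their IR24h libraries alone, so their direction was largely fixed by the filter. Fos had entered partly on its IR24h libraries. Over all genes tested 8.65% were called higher and 7.62% lower. At an unadjusted p under 0.05 in edgeR, 9 members passed, all higher, and so did 34.1% of all genes in either direction. DESeq2 called 8 members higher and 0 lower, and over all genes 15.2% higher and 12.5% lower. In the same 8 members every IR24h library lay above every sham library in CPM (with TMM scaling, edgeR's normalization between libraries), which held for 19.9% of all genes, with 21.7% the other way round. The median log2 fold change of IR24h over sham was 2.71 over the members and 0.05 over all genes tested. With 3 libraries a group an exact 2-sided permutation test cannot go below p = 0.1, the value it gave for each of the 8. All 8 stayed called without IR24h library 2, where 23.9% of all genes were called higher. Without sham library 1, 2 or 3 the members called higher numbered 4, 5 and 5, and the shares of all genes were 2.03, 1.78 and 2.1%. With scaling by library size alone 6 members were called, and 2.92% of all genes. Fosl1, Junb, Atf3 and Egr1 were called under each of the 14 alternatives run.

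**Figure D1:**
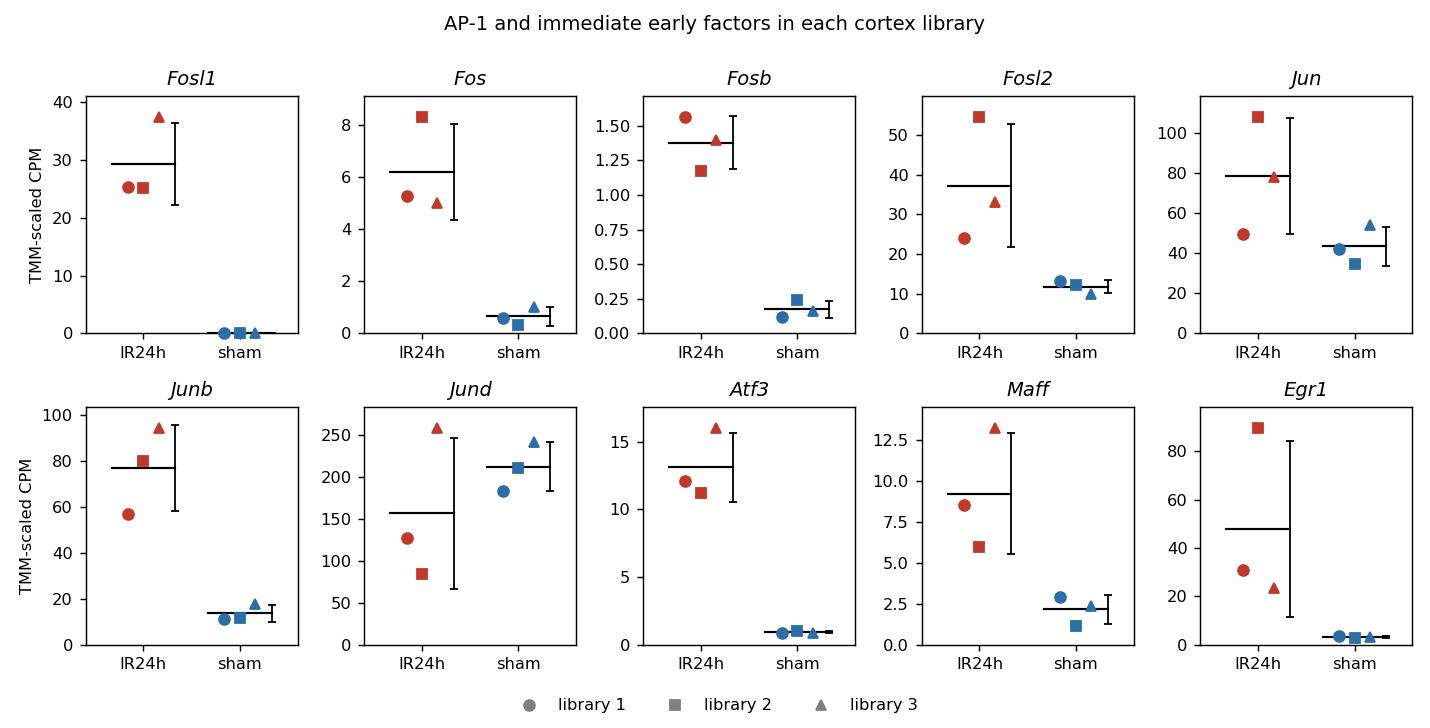
TMM-scaled CPM of each member on linear axes that differ between panels, with 1 point per library (shape gives its number), IR24h left of sham, horizontal lines at the group means and error bars of 1 SD (n = 3). The groups overlap for Jun and Jund and for no other member. All sham libraries of Fosl1 held 0 counts.

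Fosl1, which encodes the Fos protein FRA-1, was detected in every IR24h library and in no sham library. The gene lies at chr19:5447547-5455946 (+) and had 25.3, 25.2 and 37.4 CPM in the IR24h libraries and 0 in each sham library. The IR24h libraries held 178, 493 and 428 of its counts against 0, 0 and 0 in sham. Against a floor of 3 counts over the sham group, Fosl1 was at least 547-fold higher in IR24h (edgeR adjusted p = 0.00107). There were 9 genes that had 0 counts in all sham libraries and at least 30 counts in each IR24h library, and Fosl1 had the most counts of these, 1099, with Hist2h2aa2 next at 460.

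In the annotation 57.2% of the exon bases of Fosl1, 1163 bases, also belong to Ccdc85b, a gene on the opposite strand. Ccdc85b had 17.05, 8.79 and 19.8 CPM in IR24h and 20.5, 21.3 and 26.0 CPM in sham. Its IR24h libraries all lay below its sham libraries, with a log2 fold change of -0.57 ± 0.35 (SE) that did not pass the test (edgeR adjusted p = 0.279). Counts were thus assigned to Ccdc85b in the sham libraries and none to Fosl1. The sources used here do not say how the authors assigned reads in the shared bases, and its part in the 0 counts was not tested. Of 13 tested genes within 100 kb of Fosl1, 3 were higher (Cfl1, Efemp2 and Sart1) and 1 was lower, with a median log2 fold change of 0.44. Over all genes 8.65% were higher and 7.62% lower.

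Fos, the founding member of the family (chr12:85473890-85477273, +), had 5.26, 8.28 and 4.98 CPM in IR24h and 0.571, 0.337 and 1.02 CPM in sham. IR24h library 2 was highest, and the lowest IR24h library was still above the highest sham library. The log2 fold change was 3.26 ± 0.51 (SE), or 9.57-fold (edgeR adjusted p = 0.00786). The gene rested on few reads, 37, 162 and 57 counts in IR24h and 10, 7 and 19 in sham. Its call was lost when sham library 1 was left out (edgeR adjusted p = 0.0543, with 4.77e-08 by DESeq2 to 0.0543 over all alternatives).

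Fosb (chr7:19302696-19310051, -), whose product also pairs with Jun proteins, was the least abundant member that could be measured in both groups. It had 1.56, 1.18 and 1.40 CPM in IR24h, from 11, 23 and 16 counts. In sham it had 0.114, 0.240 and 0.162 CPM, from 2, 5 and 3 counts. The groups did not overlap, and Fosb was higher in IR24h by 2.91 ± 0.53 on the log2 scale, or 7.54-fold (edgeR adjusted p = 0.0133). It was no longer called without sham library 1, 2 or 3 (edgeR adjusted p = 0.0868, 0.0685 and 0.0797; over all alternatives 6.27e-04 by DESeq2 to 0.0868).

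Fosl2, which encodes FRA-2 (chr5:32135801-32157842, +), had the smallest change in the Fos family. It had 24.1, 54.5 and 33.2 CPM in IR24h and 13.2, 12.2 and 9.92 CPM in sham. All IR24h libraries lay above sham, with library 2 well above the other two. The log2 fold change was 1.66 ± 0.35, or 3.17-fold (edgeR adjusted p = 0.0208), and 1.28 without IR24h library 2. The call was lost without sham library 1, 2 or 3 (edgeR adjusted p = 0.0845, 0.0989 and 0.102) and with scaling by library size alone (0.180). Over all alternatives the adjusted p ran from 1.90e-04 by DESeq2 to 0.180 by edgeR.

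In the Jun family the members parted. Junb, which can act as a weaker activator than Jun and as its competitor for partners, was higher in IR24h, while Jun and Jund did not pass the test. Junb (chr8:84974484-84978718, -) had 57.0, 79.8 and 94.0 CPM in IR24h and 11.3, 11.6 and 17.7 CPM in sham. The groups were well apart, with a log2 fold change of 2.51 ± 0.32, or 5.69-fold (edgeR adjusted p = 0.00402). The gene length implied by the authors' count and FPKM values was 127% of the sham one in IR24h. FPKM is a read count divided by gene length and by library size. The length behind the FPKM of Junb thus differed between the groups, and whether the counted bases differed was not tested. In the annotation 7.52% of its exon bases are shared with Prdx2 on the opposite strand, whose log2 fold change was -0.55 ± 0.42 (edgeR adjusted p = 0.389).

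Jun itself (chr4:95049034-95052222, -), the strongest activator of the family, had 49.6, 107.8 and 77.9 CPM in IR24h and 41.97, 34.5 and 53.9 CPM in sham. IR24h libraries 2 and 3 lay above the highest sham library, and IR24h library 1 lay within the sham range. The log2 fold change of 0.85 ± 0.34 did not pass the test (edgeR adjusted p = 0.128). With IR24h library 2 as the only injured library it was 1.32 and passed (edgeR adjusted p = 0.00922, with 0.00922 to 0.584 over the alternatives), as did 18.8% of all genes as higher. The antisense gene Junos, not listed in the table, shares 7.28% of the exon bases of Jun.

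Jund (chr8:70698949-70700616, +), which is typically present in resting cells, had 127.6, 83.9 and 257.9 CPM in IR24h and 183, 211 and 242 CPM in sham. IR24h libraries 1 and 2 were below all sham libraries and IR24h library 3 was above them. The log2 fold change was -0.44 ± 0.42 (edgeR adjusted p = 0.495). With IR24h library 2 as the only injured library it was -1.33 and passed as lower (edgeR adjusted p = 0.00636, with 0.00636 to 0.731 over the alternatives), as did 19.2% of all genes. The antisense gene Gm11175, not listed in the table, shares 52.6% of the exon bases of Jund.

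Of the members outside the Fos and Jun families, Atf3 and Egr1 had the larger folds and Maff the smaller. Atf3 (chr1:191170296-191218039, -) encodes a bZIP repressor and stress response factor that pairs with Jun proteins. It had 12.1, 11.2 and 15.99 CPM in IR24h and 0.856, 1.01 and 0.863 CPM in sham. Both groups were tight, with a log2 fold change of 3.83 ± 0.33, or 14.3-fold (edgeR adjusted p = 0.00107).

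Maff (chr15:79346621-79359076, +) encodes a small Maf protein, which has a zipper but no activation domain and pairs with Fos proteins and Nrf2. It had 8.52, 5.93 and 13.2 CPM in IR24h and 2.91, 1.15 and 2.37 CPM in sham. The groups did not overlap, and the log2 fold change was 2.10 ± 0.48, or 4.29-fold (edgeR adjusted p = 0.0260). It was not called without any 1 sham library (edgeR adjusted p = 0.0733, 0.103 and 0.0952 without sham 1, 2 and 3), without IR24h library 1 (0.0572) or 3 (0.0698), or with scaling by library size alone (0.0920). Over the alternatives the adjusted p ran from 3.42e-04 by DESeq2 to 0.103 by edgeR. The gene length implied by the authors' values was 47.0% of the sham one in IR24h. The length behind the FPKM of Maff thus differed between the groups, and whether the counted bases differed was not tested.

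Egr1 (chr18:34859823-34864984, +), a zinc finger factor that is not part of AP-1 but is induced by the same kinases, had 30.8, 89.6 and 23.2 CPM in IR24h and 3.60, 2.55 and 2.97 CPM in sham. All IR24h libraries were far above sham, and library 2 was far above the other IR24h libraries. The log2 fold change was 3.98 ± 0.57, or 15.8-fold (edgeR adjusted p = 0.00603). It was 3.14 without IR24h library 2 and 4.90 with that library as the only injured one, and both passed. The highest of the IR24h libraries exceeded the lowest 3.85-fold for Egr1, the widest range among the members, and 1.33-fold for Fosb, the narrowest.

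**Figure D2:**
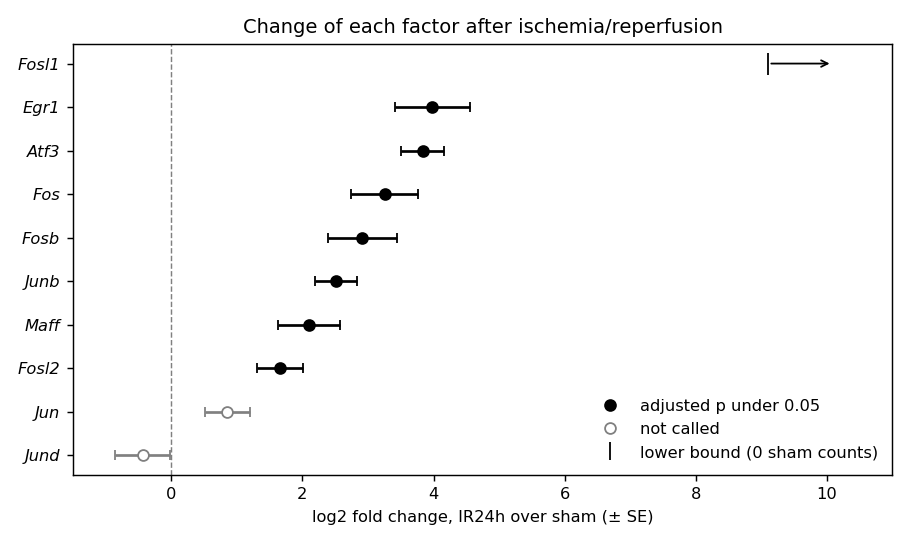
Log2 fold change of IR24h over sham for each member (points), with standard errors (bars) and a dashed line at 0; filled points were called. Fosl1 is drawn at its lower bound with an arrow because all sham libraries held 0 counts. Jund alone lies below 0, at -0.44 ± 0.42.

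The IR24h libraries did not rank the members alike. Library 2 was highest for Fos, Fosl2, Jun and Egr1, library 3 for Fosl1, Junb, Jund, Atf3 and Maff, and library 1 for Fosb. Levels between genes can be set side by side only per length, so CPM was divided by the kb of annotated exon. On that scale Jund was the most abundant in both groups, at 93.8 ± 54.3 CPM per kb in IR24h and 127 ± 17.5 in sham (SD, n = 3 each).

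In IR24h Junb (33.4 ± 8.13 CPM per kb), Jun (24.6 ± 9.12) and Fosl1 (14.4 ± 3.45) came next, followed by Egr1 (10.7 ± 8.09), Atf3 (6.08 ± 1.18), Fosl2 (3.85 ± 1.61), Maff (3.55 ± 1.42), Fos (2.62 ± 0.778) and Fosb (0.221 ± 0.0311). Of these neighbours in level, library ranges were separate only between Jund and Junb and between Fos and Fosb. In sham Jun (13.6 ± 3.06 CPM per kb) and Junb (5.88 ± 1.57) came next, then Fosl2 (1.22 ± 0.176), Maff (0.827 ± 0.347), Egr1 (0.677 ± 0.118), Atf3 (0.422 ± 0.0402), Fos (0.274 ± 0.149) and Fosb (0.0276 ± 0.0102), with Fosl1 at 0. There the ranges of Fosl2 and Maff, Maff and Egr1, and Atf3 and Fos were not separate. By group mean Fosl1 was thus last in sham, while Jund, Junb and Jun alone were above it in IR24h. In IR24h library 2 Egr1 was above it too, at 19.97 CPM per kb against 12.4 for Fosl1. This order depends on the length used. The length implied by the authors' IR24h values was 7520 bases for Egr1 and 1707 for Fosl1. The annotated exon lengths used here were 4484 and 2033 bases. Levels on the implied lengths were not ranked.

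The make-up of the Fos family differed with the groups. Summed per kb, its 4 genes reached 17.4, 21.7 and 24.2 CPM per kb in IR24h and 1.63, 1.44 and 1.49 in sham, without overlap (exact permutation p = 0.1, the smallest possible). Fosl1 held 71.4, 57.0 and 76.1% of that sum in the IR24h libraries and 0% in sham. Fosl2 held 18.1 ± 6.73% in IR24h and 80.1 ± 9.82% in sham (SD, n = 3 each), again without overlap. In CPM Fosl2 was higher in IR24h, and shares of the same sum are not independent. The shares of Fos, 12.6 ± 3.72% in IR24h and 18.0 ± 10.1% in sham, overlapped (exact permutation p = 0.6). The sum without Fosl1 was 6.70 ± 2.32 CPM per kb in IR24h and 1.52 ± 0.0975 in sham.

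The summed Jun family did not separate the groups, at 152 ± 59.0 CPM per kb in IR24h and 147 ± 21.1 in sham (SD, n = 3 each; exact permutation p = 1). Within it the shares did. Junb held 21.2, 29.2 and 18.6% in the IR24h libraries and 3.84, 3.54 and 4.53% in sham. Jund held 65.5, 42.4 and 70.3% in IR24h and 85.9, 88.9 and 85.5% in sham. Jun held 13.3, 28.4 and 11.1% in IR24h and 10.3, 7.61 and 9.97% in sham. For each of the 3 genes the groups did not overlap (exact permutation p = 0.1, the smallest possible), although IR24h library 3 was only just above sham for Jun. The shares are parts of the same sum, so these are not separate results. In CPM the groups overlapped for Jun and Jund. The antisense overlap of Jund and the length difference of Junb apply to these shares too.

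**Figure D3:**
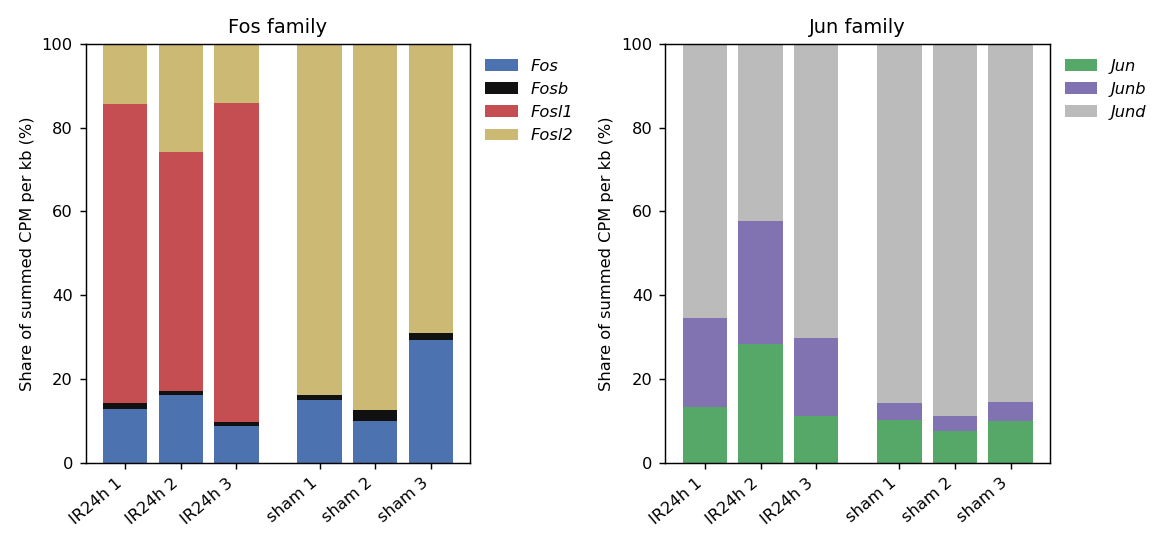
Share of each gene in the summed CPM per kb of the Fos family and of the Jun family (percent), 1 stacked bar per library, IR24h left of sham. Fosl1 fills 57.0 to 76.1% of the Fos family bars in IR24h and none in sham, and Jund is the largest part of each Jun family bar.

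Cell markers moved beside these genes. Over all genes tested 8.65% were higher and 7.62% lower. Markers of tubular injury summed to 7034, 22239 and 16698 CPM in IR24h and 1097 to 1146 in sham, and 12 of 13 were higher. Spp1 alone held 5145, 16756 and 12793 CPM of these sums in IR24h and 698, 713 and 658 in sham. Mesenchyme and smooth muscle markers, of which 8 of 11 were higher, summed to 2383, 468 and 1103 CPM in IR24h and 167 to 180 in sham. Among those higher, Postn (5, 9 and 9 sham counts) passed the filter on its IR24h libraries. Of 15 proximal tubule markers 10 were lower, and of 10 for the thick ascending limb and distal tubule 4 were lower.

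Macrophage and monocyte markers summed to 199, 118 and 307 CPM in IR24h and 104 to 114 in sham, with 4 of 13 higher. Of these, Itgam (7, 8 and 7 sham counts) and Msr1 (6, 12 and 4) passed the filter on their IR24h libraries. Neutrophil markers reached 6.29 to 18.2 CPM in IR24h and 1.02 to 1.71 in sham. Of 11, 3 passed the filter, and all 3 were higher. The log2 fold changes were 4.24 ± 1.06 for S100a8, 5.46 ± 0.78 for S100a9 and 2.18 ± 0.51 for Csf3r. In sham S100a8 had 4, 6 and 0 counts, S100a9 2, 2 and 2, and Csf3r 17, 9 and 11. They passed on their IR24h libraries, so 3 of 3 higher was largely fixed by the filter. Mpo, Elane, Camp and Ly6g had 0 counts in all 6 libraries. Endothelial markers summed to 655, 106 and 652 CPM in IR24h libraries 1, 2 and 3 and to 453 to 507 in sham. Podocyte markers, of which 0 of 7 passed the test, summed to 118 to 263 CPM in IR24h and 310 to 390 in sham. Collecting duct markers, of which 2 of 10 were lower, summed to 283 to 801 CPM in IR24h and 696 to 801 in sham. Markers of fat, adrenal, muscle and blood summed to 135 to 174 CPM in IR24h and 35.4 to 88.7 in sham.

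Within that last list some genes of fat and muscle set IR24h library 2 apart. Adipoq, which marks fat cells, had 0, 313 and 3 counts in IR24h libraries 1, 2 and 3, Plin1 had 0, 247 and 0, and Lep had 0, 435 and 0. Myh4, a muscle myosin, had 0, 205 and 0 counts there, and these 4 genes had 0 counts in all sham libraries. Not every gene of the list followed this. Cidec had 48, 381 and 8 counts in IR24h libraries 1, 2 and 3, and 1, 2 and 2 in sham. Fabp4, the 1 gene called on the list, had 66.8, 65.1 and 82.9 CPM in IR24h and 13.2, 16.6 and 23.4 in sham. IR24h library 2 was the highest of the IR24h libraries for Fos, Fosl2, Jun and Egr1. In bulk tissue fewer cells of a type and less RNA per cell cannot be told apart, and the part of these cell types and tissues in the members' changes was not tested.

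The wider network was read from 6 lists, which were chosen with earlier results of these data known. Over all genes tested 8.65% were called higher and 7.62% lower, beside which the list counts below should be read. Of 30 tested genes among 33 other AP-1 and related bZIP factors, 5 were higher, 3 were lower and 22 did not pass, with a median log2 fold change of -0.03. These shares, 16.7% higher and 10% lower, were not far from those over all genes. Creb5, which can pair with Jun, had 14.2 ± 5.20 CPM in IR24h and 0.683 ± 0.218 in sham (log2 fold change 4.36 ± 0.45, edgeR adjusted p = 0.00188). Atf4 (2.04 ± 0.45) and Atf5 (1.98 ± 0.39), factors of the integrated stress response, were higher. Maf had 61.8 ± 47.6 CPM in IR24h and 385 ± 79.1 in sham and fell by 2.64 on the log2 scale (edgeR adjusted p = 0.0193). The gene length behind Atf4 in IR24h was 42.2% of the sham one.

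Of 27 tested genes among 30 other immediate early genes, 12 were higher and 1 was lower, with a median log2 fold change of 1.25. Egr2, a close relative of Egr1, had 4.21 ± 1.78 CPM in IR24h and 0 counts throughout sham; against a floor of 3 counts over the group its level was at least 79.7-fold higher. Myc, a growth regulator, had 31.7 ± 8.92 CPM in IR24h and 3.49 ± 1.68 in sham (log2 fold change 3.18 ± 0.43, edgeR adjusted p = 0.00488). Arc, best known from neurons, was higher by 3.09 ± 0.49. The kinase gene Sgk1 was lower by 1.58 on the log2 scale, with 26.0 ± 13.03 CPM in IR24h and 77.9 ± 9.86 in sham (edgeR adjusted p = 0.0463).

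Of 39 tested genes for kinases and factors upstream of AP-1, 5 were higher and 0 lower, with a median log2 fold change of 0.21 (1 was lower at an unadjusted p under 0.05 and 1 by DESeq2). The share called higher, 12.8%, lay near the 8.65% of all genes. Map3k1, a kinase that feeds the JNK pathway, had 95.4 ± 36.4 CPM in IR24h and 24.98 ± 5.12 in sham (log2 fold change 1.93 ± 0.34, edgeR adjusted p = 0.0120). The p38 kinases Mapk11 (2.71 ± 0.52) and Mapk13 (1.61 ± 0.35) were higher too, with implied gene lengths of 48.4 and 37.9% of the sham ones. Of 22 tested brakes on AP-1 and Egr1, 5 were higher and 0 lower, with a median of 0.61 (1 was lower at an unadjusted p under 0.05 and 1 by DESeq2). The phosphatases Dusp5 (2.90 ± 0.42) and Dusp10 (2.30 ± 0.37), which act on ERK and on JNK and p38, were among them. Men1, whose product menin binds JunD, was higher by 5.37 ± 0.48 with an implied gene length of 90.9% of the sham one, and all 9 of its tested neighbours within 100 kb were higher as well, with a median of 5.94.

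Among AP-1 target genes 24 of 31 tested were higher and 1 was lower, with a median log2 fold change of 2.62. Of the 36 listed, 6 are also on the tubular injury list. In sham Timp1 had 10, 4 and 0 counts, Lif 5, 10 and 7, Mmp3 4, 1 and 0, and Il11 0, 3 and 6. These genes passed the filter on their IR24h libraries, so their direction was largely fixed by it. Timp1, an inhibitor of matrix proteases, had 31.6 ± 16.01 CPM in IR24h and 0.254 ± 0.291 in sham (log2 fold change 6.94 ± 0.91, edgeR adjusted p = 0.00441). The cytokine gene Lif was higher by 5.43 ± 0.75 and the protease gene Mmp3 by 4.70 ± 1.05. Mmp13, a collagenase gene and a classical AP-1 target, was lower, with 0.219 ± 0.191 CPM in IR24h and 1.802 ± 0.227 in sham (log2 fold change -2.82 ± 0.67, edgeR adjusted p = 0.0299).

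Of 17 tested Egr1 target genes 8 were higher and 0 lower, 0 lower also by DESeq2 and at an unadjusted p under 0.05, with a median log2 fold change of 1.13. Ptgs2, the inducible prostaglandin synthase, had 100.9, 2.66 and 29.5 CPM in IR24h and 0.228, 0.0481 and 0.162 in sham. Its level thus differed widely within IR24h, and it was lowest in library 2. Ptgs2 had 4, 1 and 3 counts in sham, and Egr2, also on this list, had 0. Both passed the filter on their IR24h libraries, so their direction was largely fixed by it. Cdkn1a, a cell cycle inhibitor, had 35.8 ± 3.01 CPM in IR24h and 4.54 ± 0.815 in sham (log2 fold change 2.98 ± 0.27, edgeR adjusted p = 0.00117), with an implied gene length in IR24h of 46.5% of the sham one.

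The list counts moved with the libraries used. When 1 sham library was left out, whichever it was, the genes called higher numbered 1 of the other bZIP factors, 2 to 3 of the immediate early genes, 0 of the upstream kinases and factors, 2 to 3 of the brakes, 9 to 12 of the AP-1 targets and 3 to 4 of the Egr1 targets. Over all genes 1.78 to 2.1% were then called higher. With scaling by library size alone the counts in the same order were 1, 3, 1, 2, 15 and 4, beside 2.92% of all genes. Without IR24h library 2 the genes called lower were 7 of the other bZIP factors, 5 of the upstream kinases and factors and 3 of the brakes, beside 24.5% of all genes, and those called higher were 8, 8 and 10, beside 23.9%. Of the 21 list genes that the naming rule takes, 8 were called in the same direction without any 1 of the sham libraries. Those not called then included Atf4, Atf5, Maf, Arc, Sgk1, Mapk11, Map3k1, Mapk13, Dusp10, Mmp3, Mmp13 and Ptgs2.

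**Figure D4:**
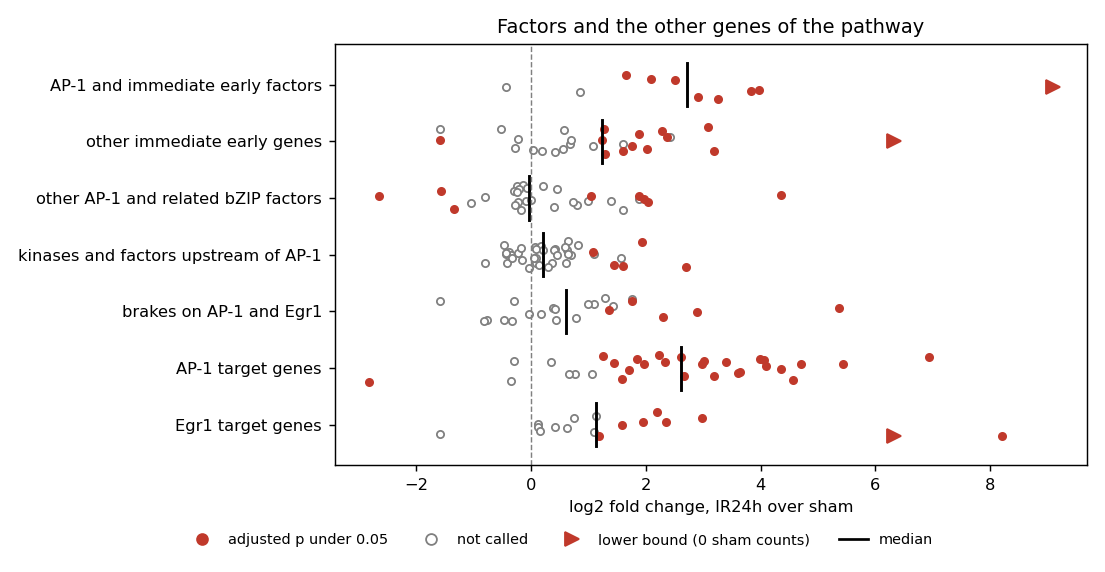
Log2 fold change of IR24h over sham for the members and every tested gene of the 6 lists, 1 point per gene. Filled points were called, open points were not, triangles are lower bounds of genes with 0 sham counts, vertical bars are list medians and the dashed line is at 0. The AP-1 targets have a median of 2.62 and the other bZIP factors one of -0.03.

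The genes whose pattern was most like that of the called members were Pitpna, Ehd1, Ranbp1, Lcn2 and Plaur, with Pearson r of 0.999, 0.999, 0.998, 0.998 and 0.998. The measure was the correlation of log2 CPM over the 6 libraries with the median profile of the 8 called members, among the 9226 tested genes that averaged 10 CPM or more. The profile separates IR24h from sham, so that a gene with an even difference of any size can score high. Pitpna had 113.6, 115.8 and 120.2 CPM in IR24h and 64.1, 62.1 and 64.7 in sham, while Lcn2, an injury marker, had 240.1, 319.2 and 290.5 CPM in IR24h and 0.799, 0.385 and 1.08 in sham. Of tested neighbours within 100 kb, 8 of 8 were higher around Ehd1 and 5 of 6 around Ranbp1. Around the 10 members 7 of 62 tested neighbours were higher and 3 were lower, near the 8.65 and 7.62% of all genes.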

How the data were processed

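RNA from the renal cortex was sequenced in 3 IR24h and 3 sham libraries. CASAVA 1.8 and TopHat2 2.0.6, with the builds mm10 and GRCh38, are named in the submitters' processing notes; the sources used here give no counter or annotation. The authors deposited a count and an FPKM value per gene and library, per the file headers. Counts were the measurement, and FPKM served to derive the implied gene length and in 1 alternative for shares. Of 22040 genes, 83 without a sham value were left out, and 21880 of the others matched GENCODE M21 (GRCm38), which gave coordinates and exon lengths.

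Counts were tested with edgeR 4.0.16 (limma 3.58.1, R 4.3.3): its expression filter, TMM scaling, a quasi-likelihood test of IR24h against sham, 2-sided, with Benjamini-Hochberg adjustment over 13609 genes and a threshold of 0.05. The common biological coefficient of variation was 0.394, and the fit was tested on simulated data. Effective library sizes gave CPM. Alternatives, among them DESeq2 1.42.0, are given at the end. Exact permutation tests used NumPy 2.4.6, tables pandas 2.3.3 with NumPy, and figures matplotlib 3.10.9, in Python 3.11.15.

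The members and the gene lists were chosen with earlier results of these data known. All members are named; from each pathway list the 3 highest and 2 lowest log2 fold changes among called genes with at least 1 CPM in the higher group are named, except 1 that is not reported here. A floor of 3 counts over a group covers counting error only, since PCR reads are not independent molecules.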

Additional observations from a re-analysis of the deposited data

How the results depend on the processing

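The 8 members stayed higher under DESeq2, limma-voom, upper-quartile scaling, no filter on low counts and without the genes of the mitochondrial genome, while leaving out 1 library gave 4 to 8, the lowest without sham library 1. With IR24h library 2 as the only injured library 1 member was lower, Jund; that lone library is assumed to vary like the sham libraries. Over all genes 1177 were higher and 1037 lower. DESeq2 gave 2073 higher and 1695 lower, IR24h library 2 alone 2690 and 2749, and library-size scaling, which moves the median of all genes to -0.39, 398 and 611. Leaving out 1 library gave 246 to 3297 higher and 196 to 3382 lower. The causes were not tested. Same-numbered libraries deviated together at -0.11, 0.12 and 0.23, the last being the highest value of any pair. Pairs with unlike numbers ran from -0.27 to 0.18, and IR24h 1 correlated best with sham 3, at 0.13. With 3 libraries a group these values cannot show whether the replicate numbers pair the libraries. With the number as a block 814 genes were higher and 843 lower, and 8 members higher and 0 lower. In percentage points of the Fos family, IR24h minus sham, Fosl1 was 68.2 and 77.4 with the deposited FPKM. With CPM not divided by length the differences were 3.05 for Fos, 0.585 for Fosb, 40.6 for Fosl1 and -44.2 for Fosl2, against -5.44, -0.768, 68.2 and -62.0; the shares of Fos and Fosb overlap between the groups. Without Fosl1, an alternative chosen after seeing the data, Fos was at 21.7, Fosb at 1.796 and Fosl2 at -23.5. At these depths Fosb and Fos rest on 2 to 162 counts per library.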
